A study of Mus musculus with 30 samples.

Results

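The comparison set 3 libraries of mouse retinal organoids at day 18 of differentiation (D18) against 3 libraries at day 15 (D15), across all genes of the deposited table of estimated gene counts. These 6 libraries belong to a series of 30, with 3 libraries on each of 10 days. Both days share 1 origin: an Nrl-GFP wild-type induced pluripotent stem cell clone, reprogrammed from fibroblasts of mice at embryonic day 14.5 with inducible lentiviral vectors for Oct3/4, Sox2, Klf4 and c-Myc. Since 1 clone was used, the replicates share 1 genotype. In this line green fluorescent protein stands under the Nrl promoter as a reporter of rod precursors. Organoids of both days had been kept at 5% O2 up to D10 and at 20% O2 from then on, in medium with taurine at 1 mM, 9-cis retinal at 500 nM and the growth factor IGF1 at 100 ng/ml. For each library the neural retina of 12 organoids was dissected and pooled, so a library is a bulk sample of many cells. Replicate 2 is described apart from replicates 1 and 3, from which it differed at Rpl3 as given below.

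Rods and cones arise from the same dividing retinal progenitors. In a cell that leaves the cycle the homeobox factor OTX2 and its target CRX start the photoreceptor programme, and the basic leucine zipper factor NRL then directs the cell to the rod fate. NRL acts with CRX on rod genes and turns on Nr2e3, a nuclear receptor that supports rod genes and holds cone genes down, and photoreceptors without NRL take a form like that of short-wavelength cones. Most of the rod phototransduction cascade follows the onset of NRL with a delay.

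The 250 bases before a RefSeq start of transcription are given for Nrl and for 3 of the genes with the largest rises. They show sites where such factors could be looked for. They are RefSeq promoter windows on GRCm38.p6, read 5′ to 3′ on the strand of the gene: Nrl at chr14:55524253-55524502 (minus strand), Nr2e3 at chr9:59950080-59950329 (minus), Samd7 at chr3:30746043-30746292 (plus) and Opn1sw at chr6:29380514-29380763 (minus). In the gene annotation of the counts, the windows of Nrl, Nr2e3 and Opn1sw lie inside the span of the gene. Their RefSeq starts therefore differ from the outer ends of those genes, while the Samd7 window ends just before its gene. Capitals mark TAATCC, a core sequence bound by CRX and OTX2, and TGCTGA, each searched on both strands. TGCTGA is a stretch of the site bound by the MAF family to which NRL belongs.
Nrl: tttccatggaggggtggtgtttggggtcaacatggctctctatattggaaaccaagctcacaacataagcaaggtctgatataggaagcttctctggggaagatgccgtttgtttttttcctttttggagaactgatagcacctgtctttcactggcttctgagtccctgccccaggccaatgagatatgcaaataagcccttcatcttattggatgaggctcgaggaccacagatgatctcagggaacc
Nr2e3: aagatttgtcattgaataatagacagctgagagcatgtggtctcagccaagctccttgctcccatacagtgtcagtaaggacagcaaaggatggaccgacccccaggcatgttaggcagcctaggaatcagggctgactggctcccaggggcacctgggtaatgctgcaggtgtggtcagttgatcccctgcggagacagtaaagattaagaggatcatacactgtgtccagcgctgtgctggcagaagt
Samd7: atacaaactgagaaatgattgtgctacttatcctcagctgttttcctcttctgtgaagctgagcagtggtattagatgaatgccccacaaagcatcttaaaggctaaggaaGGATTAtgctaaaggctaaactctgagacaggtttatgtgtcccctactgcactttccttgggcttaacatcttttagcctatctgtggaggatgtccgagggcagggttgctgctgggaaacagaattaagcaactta
Opn1sw: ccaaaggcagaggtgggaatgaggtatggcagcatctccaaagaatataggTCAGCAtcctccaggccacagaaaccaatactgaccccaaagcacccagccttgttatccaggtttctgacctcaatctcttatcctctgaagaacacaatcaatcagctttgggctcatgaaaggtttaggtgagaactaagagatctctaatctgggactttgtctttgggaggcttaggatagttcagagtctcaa
Of all 32851 windows of this length, 6.3% held TAATCC and 16.1% held TGCTGA. The Samd7 window held 1 TAATCC and the Opn1sw window 1 TGCTGA, with no overlap of the 2 motifs, and the windows of Nrl and Nr2e3 held neither. Of the 10 largest rises described below, 9 genes had 12 windows in all, of which 2 (16.7%) held TAATCC and 4 (33.3%) held TGCTGA. Of the 10 largest falls, 8 genes had 13 windows, of which 4 (30.8%) held TAATCC and 2 (15.4%) held TGCTGA. These matches describe letters in the windows and not binding.

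Between D15 and D18, 381 genes rose and 194 fell, out of 19897 tested (edgeR's quasi-likelihood F test, adjusted p below 0.05 after Benjamini-Hochberg adjustment). The calls made up 2.89% of tested genes, 1.91% higher and 0.975% lower. The rises were larger than the falls: the median log2 change was 1.38 among genes called higher and -0.81 among genes called lower, and 99 rises but 10 falls reached 4-fold. Protein-coding genes made up 91.08% of the rises. The 6 libraries held 18.07 to 20.19 M counts. Values below are CPM, counts scaled to the TMM-adjusted size of a library, and give a level that is not divided by gene length. With the replicate number as a block, 651 genes were called over all 30 libraries and 1353 over the 6 libraries of both days. That the numbers pair the samples is an assumption of this block and is not given by the labels. Libraries of the 2 days did not overlap in 377 of the rises and in all 194 falls, against 11.1% of all tested genes with D18 above D15 and 12.0% with D18 below it. Without any scaling beyond library size, 409 genes were called higher and 63 lower, so the split moved from 66.26% to 86.65% higher, and the median log2 change of all tested genes moved by 0.09. Without D15 replicate 1 the count was 255, without D15 replicate 3 it was 314, without D18 replicate 2 it was 301 and without D18 replicate 3 it was 314.

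With replicate 2 set apart, replicates 1 and 3 gave 261 calls (1.31% of tested genes), 202 higher (1.02%) and 59 lower (0.297%), and 234 of the 261 were also called with all 3 replicates. All 381 rises and all 194 falls had the same sign in replicates 1 and 3 and in replicate 2. In the single pair of libraries of replicate 2 the median log2 change was 1.34 for the rises and -0.81 for the falls, against 1.44 and -0.77 in replicates 1 and 3. These genes were chosen on all 6 libraries, so the shared sign is a description. Testing the difference itself, no gene differed in its change between replicate 2 and replicates 1 and 3 by DESeq2 or by edgeR with its low-count filter, 1 gene did by edgeR without that filter and 1 by limma, and 559 genes (2.81%) lay at an unadjusted p below 0.05 in edgeR. At Rpl3, a ribosomal protein gene with processed copies, 2 pseudogenes took 83.8 to 86.4% of the counts in replicates 1 and 3 but 21.1% and 30.8% in replicate 2 at D15 and D18.

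Nrl itself was low at D15 and rose in every replicate by D18. The gene lies on chromosome 14 at 55518978-55524981, minus strand, in GRCm38.p4 (ENSMUSG00000040632). Its level was 3.17, 8.51 and 4.44 CPM in D15 replicates 1, 2 and 3, and 22.8, 41.7 and 44.4 CPM in D18 replicates 1, 2 and 3. The lowest D18 library stood above the highest D15 library, which was replicate 2. The log2 change was 2.76 (SE 0.33, adjusted p 1.33e-05), with 305 counts over the D15 libraries and 2243 over the D18 libraries. In replicates 1 and 3 it was 3.14 (adjusted p 5.19e-05) and in the single pair of replicate 2 it was 2.29, a difference that did not pass its own test (unadjusted p 0.121 in edgeR's F test). D12 and D22 libraries frame this step: Nrl stood at 0.451 to 0.974 CPM at D12 and at 210 to 443 CPM at D22. The transcript Nrl-201 took 91.8% of the Nrl counts at D15 and 94.0% at D18. In a bulk sample more cells that express a gene and more RNA per cell cannot be told apart, here or in any value below.

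**Figure D1:**
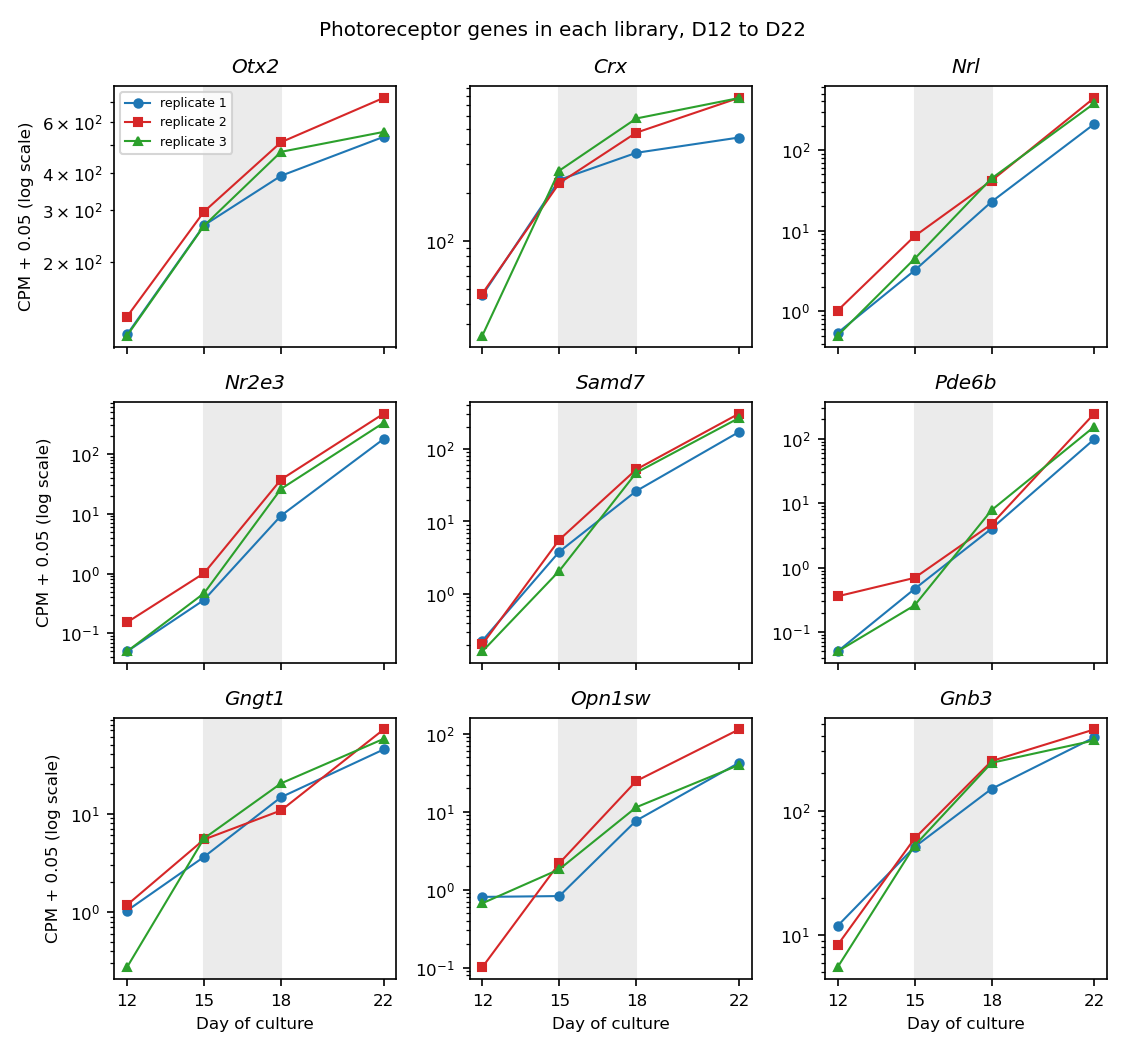
Levels of 9 photoreceptor genes in each library on 4 days (x axis, day of culture; y axis, CPM + 0.05 on a log scale), with 1 line per replicate number and the step from D15 to D18 shaded. Nrl, Nr2e3 and Samd7 rose in all 3 replicates across the shaded step.

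Nr2e3, the nuclear receptor downstream of NRL, had the largest rise of all genes named by the rule. It was barely detected at D15, with 0.312, 0.963 and 0.418 CPM in replicates 1, 2 and 3, and reached 9.21, 37.1 and 25.9 CPM at D18. Both days were highest in replicate 2 and lowest in replicate 1, and the days did not overlap. Its log2 change was 5.40 (SE 0.54, adjusted p 1.77e-06), from 32 counts over the D15 libraries to 1470 over the D18 libraries. Replicates 1 and 3 gave 5.56 and replicate 2 gave 5.26. Samd7, a photoreceptor protein that works with Polycomb repression, followed the same course, from 3.79, 5.56 and 2.04 CPM to 26.2, 51.9 and 46.8 CPM. The log2 change of Samd7 was 3.45 (SE 0.35, adjusted p 1.50e-06), and it was 3.64 in replicates 1 and 3 and 3.22 in replicate 2. Its relative Samd11 rose by 1.55 on the log2 scale (SE 0.34, adjusted p 0.0102), from 7.90, 13.8 and 6.58 CPM to 16.2, 32 and 34.3 CPM. D15 replicate 2 was again the highest library of its day. The calls on Nrl, Nr2e3 and Samd7 held in all 18 alternatives run, whereas Samd11 lost its call without D15 replicate 1 or 3, or without D18 replicate 2 or 3 (adjusted p up to 0.079).

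Otx2 and Crx, which act before NRL, were already abundant at D15, at 229 to 296 CPM, and had smaller log2 changes than Nrl. Of the 18 photoreceptor fate regulators tested, 7 rose and none fell, where 1.91% and 0.975% of all tested genes did. Of these 7 rises, 4 were Nrl, Nr2e3, Samd7 and Samd11. Of the other 14 regulators 3 rose, with a median log2 change of 0.55 over the 14, beside 0.00 over all tested genes. Otx2 rose from 266, 296 and 265 CPM to 392, 510 and 473 CPM, a log2 change of 0.73 (SE 0.16, adjusted p 0.00912). Neurod1, a basic helix-loop-helix factor of precursors and photoreceptors, rose from 108, 158 and 127 CPM to 190, 281 and 278 CPM (log2 change 0.93, SE 0.24, adjusted p 0.0283). Mef2d, which supports the photoreceptor programme, rose by 0.72 (SE 0.16, adjusted p 0.0119). All of these had D18 libraries above every D15 library. None of the 3 was called in replicates 1 and 3 (adjusted p 0.0733 to 0.102), and each lost its call without D15 replicate 1 or without D18 replicate 2, Otx2 and Neurod1 also without D15 replicate 3 and Neurod1 without D18 replicate 3.

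Crx stood at 240, 229 and 274 CPM at D15 and at 354, 473 and 580 CPM at D18. Its libraries did not overlap between days either, but the log2 change of 0.92 (SE 0.30) missed the threshold (adjusted p 0.0983). Crx was called in 5 of the 18 alternatives, with adjusted p 0.044 by DESeq2, 0.016 over the 6 libraries of both days and 0.0025 there with the replicate block. Prdm1, which keeps precursors from the bipolar fate, was at 83.8, 103 and 90.9 CPM and then at 174, 191 and 147 CPM, with a log2 change of 0.88 (SE 0.27, adjusted p 0.0775), and was called by DESeq2 (adjusted p 0.036) and over the 6 libraries (0.0075, or 0.0015 with the block). Rxrg and Thrb, nuclear receptors of cone precursors, gave log2 changes of 0.63 (adjusted p 0.0952, but 0.024 by DESeq2 and 0.047 with library size only) and 0.07 (adjusted p 0.960). The thyroid hormone receptor gene Thrb was level between the days, at 100 to 135 CPM at D15 and 103 to 137 CPM at D18. Rorb, needed for Nrl expression, was at 217 to 248 CPM and then at 221 to 255 CPM, with a log2 change of 0.07 (SE 0.21, adjusted p 0.926). Onecut1, a factor of early-born cones and horizontal cells, gave -0.33 (adjusted p 0.627), Casz1 gave -0.10 (adjusted p 0.923), and Isl2 and Sall3 gave 0.47 and 0.83 with wide errors (SE 0.54 and 0.53). Esrrb and Mef2c, which act in later rods, stayed at 0.727 to 1.12 CPM and at 0.888 to 1.65 CPM on both days.

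Rod genes rose in part. Of 14 genes known to depend on NRL in rods, 5 rose and none fell. Of 15 genes of rod phototransduction 6 rose and none fell, where 1.91% and 0.975% of all tested genes did. These lists overlap, with Pde6b and Pde6g among the shared members. Medians of the log2 change were 0.33 and 0.72 with all 3 replicates. Fitted with replicate 2 apart, they were 1.32 and 1.33 in replicates 1 and 3, against 0.15 and 0.38 in replicate 2. Single library pairs, with 0.1 added to each CPM, gave smaller medians for replicates 1 and 3. For the NRL-dependent genes these were 0.878, 0.145 and 0.55 in replicates 1, 2 and 3. For rod phototransduction they were 0.938, 0.379 and 0.906. Some members, such as Pde6a and Cnga1, were near the floor on both days. In 11 of the 14 and 11 of the 15 genes the highest D15 level was in replicate 2, against 36.6% of all tested genes. Pde6b, the catalytic beta subunit of rod phosphodiesterase, went from 0.416, 0.642 and 0.209 CPM to 3.97, 4.65 and 7.73 CPM. This was a log2 change of 3.67 (SE 0.49, adjusted p 3.84e-05), with 4.2 in replicates 1 and 3 and 2.85 in replicate 2. Pde6g, the inhibitory gamma subunit of the same enzyme, went from 1.45, 0.749 and 0.470 CPM to 3.52, 7.59 and 4.72 CPM (log2 change 2.55, SE 0.42, adjusted p 0.000633). All 3 D18 libraries stood above all 3 D15 libraries for both subunits, and both calls held in all 18 alternatives. The catalytic alpha subunit gene Pde6a was at 0 to 0.268 CPM at D15 and at 0.135 to 0.253 CPM at D18.

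Cngb1, a subunit of the rod cyclic nucleotide-gated channel, had a call that leaned on replicate 2. It stood at 0.260, 0.321 and 0.209 CPM at D15 and at 0.812, 5.67 and 0.827 CPM at D18, so replicate 2 stood far above the others at D18. Its log2 change was 3.16 (SE 0.80, adjusted p 0.0269) with all libraries and 1.78 (adjusted p 0.272) in replicates 1 and 3, and the call was lost without D18 replicate 2 and without any of the D15 libraries (adjusted p up to 0.39). The partner subunit Cnga1 gave at most 1 count in any of the 6 libraries. Sag, rod arrestin, rose from 5.82, 7.38 and 5.28 CPM to 11.2, 37.2 and 18 CPM, a log2 change of 1.85 (SE 0.40, adjusted p 0.00859). It was also highest in replicate 2, gave 1.41 in replicates 1 and 3 (adjusted p 0.0896), and lost its call without D15 replicate 1 or 3 or D18 replicate 2.

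Gngt1, the gamma subunit of rod transducin, rose by 1.64 on the log2 scale (SE 0.32, adjusted p 0.00304), from 3.58, 5.40 and 5.54 CPM to 14.6, 10.7 and 20.2 CPM; the call was lost by limma with a pseudocount of 0.1. Pdc, phosducin, which binds the transducin beta-gamma pair, rose by 1.52 (SE 0.35, adjusted p 0.0150), from 24.8, 41.8 and 31.3 CPM to 59.1, 116 and 105 CPM. Pdc lost its call without D15 replicate 1 or 3, or D18 replicate 2 or 3 (adjusted p up to 0.11). The other parts of the cascade were not called. Gnat1, the alpha subunit of rod transducin, was at 0.571 to 1.55 CPM and then at 0.677 to 1.37 CPM. Gnb1, the beta subunit, which most cells express, was the most abundant member that was not called, at 507 to 568 CPM and then at 445 to 483 CPM. Grk1, a photoreceptor kinase, gave 0.72 (adjusted p 0.235, but 0.047 over the 6 libraries with the replicate block), Rdh12 gave 0.38 (adjusted p 0.490), Slc24a1 gave 0.09 (adjusted p 0.980) and Reep6 gave -0.63 (adjusted p 0.279).

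Of 11 tested cone genes 7 rose and none fell, with a median log2 change of 1.65 (1.68 in replicates 1 and 3 and 1.60 in replicate 2). Of these 7, Ccdc136 was not called in replicates 1 and 3 (adjusted p 0.0676). Opn1sw, the opsin of short-wavelength cones, went from 0.779, 2.14 and 1.78 CPM to 7.67, 24.8 and 11.4 CPM. Its log2 change was 3.22 (SE 0.57, adjusted p 0.00142), with 2.90 in replicates 1 and 3 and 3.53 in replicate 2, and the call held in all 18 alternatives. Replicate 2 had the highest Opn1sw level on both days. Gnb3, the transducin beta subunit of cones, was far more abundant and rose from 51.1, 59.8 and 52.3 CPM to 150, 251 and 243 CPM (log2 change 1.98, SE 0.28, adjusted p 9.90e-05). Gngt2, the matching gamma subunit, rose from 35.9, 42.1 and 46.2 CPM to 136, 193 and 217 CPM (log2 change 2.14, SE 0.36, adjusted p 0.000883). For both subunits every D18 library, the lowest at 136 CPM, stood far above every D15 library, the highest at 59.8 CPM.

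Kcne2, a potassium channel subunit, rose by 2.65 (SE 0.61, adjusted p 0.0137), Pde6c, the catalytic subunit of cone phosphodiesterase, by 1.65 (SE 0.41, adjusted p 0.0247), Cngb3, of the cone channel, by 1.29 (SE 0.29, adjusted p 0.0106) and Ccdc136 by 0.97 (SE 0.22, adjusted p 0.0122). Each of these 4 lost its call without D15 replicate 1 and without D18 replicate 2, Kcne2 also without D15 replicate 2 or 3, and Pde6c also without D15 replicate 3 or D18 replicate 3. Gnat2, the alpha subunit of cone transducin, stood at 6.49, 8.51 and 6.01 CPM and then at 16.1, 26.5 and 18.9 CPM, without overlap, and missed the threshold (log2 change 1.55, adjusted p 0.0731). It was called with the replicate block (adjusted p 0.047 over all 30 libraries and 0.00081 over the 6) and by DESeq2 (0.025). Pde6h, the cone inhibitory subunit, stood at 0.831, 4.98 and 0.313 CPM and then at 5.10, 9.61 and 10.8 CPM. It was not called with all 3 replicates (adjusted p 0.133) but was called in replicates 1 and 3, with a log2 change of 3.78 (adjusted p 0.0103), while replicate 2 started from a higher level and gave 0.95. Arr3, cone arrestin, and Cnga3 gave 1.03 and 0.83 (adjusted p 0.347 and 0.386), and Opn1mw, the medium-wavelength opsin, gave no count in any of the 6 libraries.

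**Figure D2:**
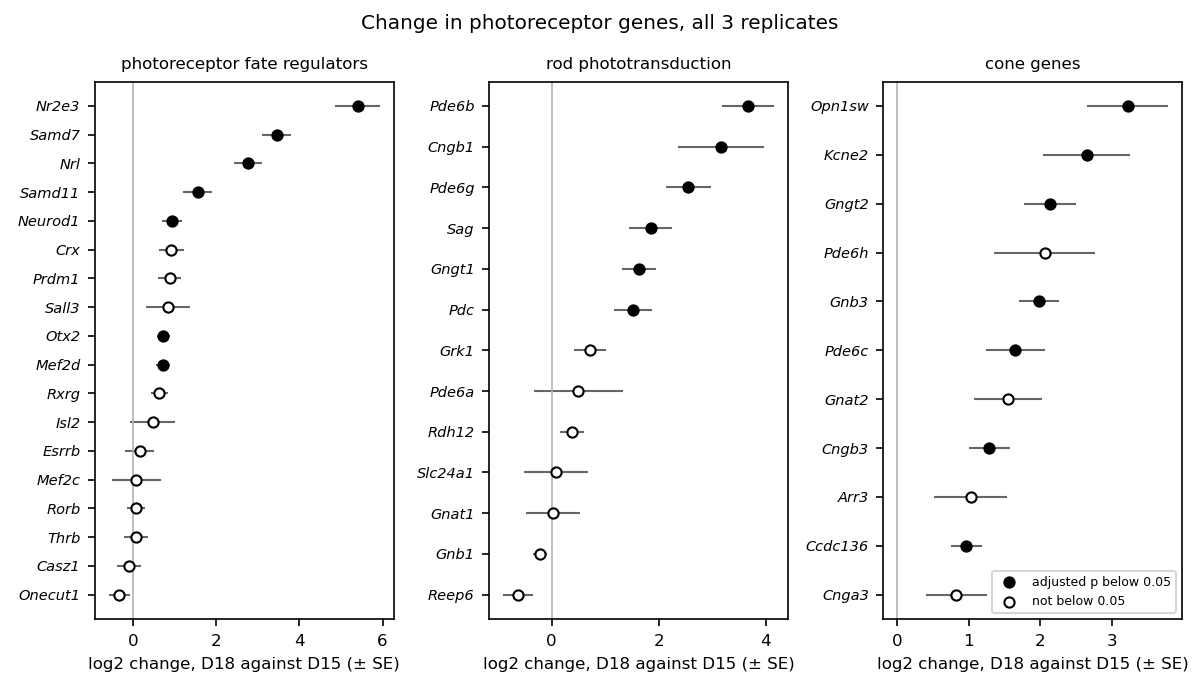
Log2 change from D15 to D18 (x axis, ± SE from the fit) for photoreceptor fate regulators, rod phototransduction genes and cone genes, with filled points for adjusted p below 0.05. Cnga1 is left out because it was at the floor on both days and Opn1mw because it had no count, and 1 further rod gene is not shown; every cone gene shown lies above 0, with 7 filled points, and rod genes run from -0.63 for Reep6 to 3.67 for Pde6b.

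Structural genes of the outer segment and its cilium rose as a broad group: 10 of 17 tested identifiers were called higher, none lower, and all 10 were also called in replicates 1 and 3. The median log2 change was 1.32. Rp1, a microtubule protein of the outer segment axoneme, went from 0.623, 1.18 and 0.470 CPM to 9.70, 25.8 and 17.6 CPM, a log2 change of 4.54 (SE 0.48, adjusted p 1.77e-06). A second identifier with the symbol Rp1 overlaps this gene and had 19 counts in all at D18. Prph2, peripherin, which shapes the disc rim, went from 3.22, 9.47 and 2.30 CPM to 19.6, 33.4 and 36.4 CPM (log2 change 2.58, SE 0.37, adjusted p 0.000103). Here D15 replicate 2 was the highest of its day by far, and the log2 change was 3.34 in replicates 1 and 3 against 1.82 in replicate 2. Impg2, a proteoglycan of the matrix around photoreceptors, rose by 1.99 (SE 0.28, adjusted p 6.96e-05) and Rp1l1, a relative of Rp1, by 1.80 (SE 0.27, adjusted p 0.000261). These 4 calls held in all 18 alternatives. Rpgrip1 of the connecting cilium, Rbp3 (the retinoid carrier of the matrix), Tulp1, Cdhr1, Abca4 and Unc119 made up the rest of the calls, with log2 changes of 0.73 to 1.79. Rbp3 was the most abundant of them, at 183, 265 and 181 CPM and then at 446, 710 and 769 CPM. Prom1, a membrane protein of new discs that progenitors also express, was the most abundant member not called, at 97.7 to 115 CPM and then at 117 to 123 CPM.

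Among 10 calcium sensors, guanylate cyclases and their partners, 4 rose and none fell. Aipl1, the chaperone of phosphodiesterase, rose from 3.12, 5.35 and 4.08 CPM to 11.8, 17.3 and 13.6 CPM (log2 change 1.76, SE 0.31, adjusted p 0.00108). Gucy2e, a photoreceptor guanylate cyclase, rose from 7.90, 7.44 and 6.22 CPM to 17.2, 24 and 29.2 CPM (log2 change 1.71, SE 0.31, adjusted p 0.00164). Both calls held in all 18 alternatives. Rd3, which holds that cyclase in check, rose by 1.55 (SE 0.35, adjusted p 0.0122), a call lost without D15 replicate 1 or 3, or D18 replicate 2 or 3. Recoverin, Rcvrn, remained near the floor, at 0 to 0.161 CPM at D15 and 0.587 to 1.06 CPM at D18. Its log2 change of 3.43 (SE 0.80, adjusted p 0.0167) rests on few counts and lost its call without D15 replicate 1 or 3 or D18 replicate 2.

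The rest of the 10 largest rises were Rd3l, Syt6, Slc1a7, Mpp4 and Cacng3. Rd3l, a relative of Rd3, rose from 1.35, 2.03 and 1.57 CPM to 9.52, 15 and 16.8 CPM (log2 change 3.06, SE 0.29, adjusted p 1.77e-06). Syt6, a synaptotagmin, rose from 2.44, 5.73 and 5.07 CPM to 40.2, 38.8 and 36.2 CPM (log2 change 3.12, SE 0.42, adjusted p 4.15e-05). Slc1a7, a glutamate transporter of photoreceptor and bipolar terminals, rose from 2.13, 2.46 and 2.51 CPM to 11.1, 23.1 and 21.7 CPM (log2 change 2.97, SE 0.32, adjusted p 1.77e-06). The D18 libraries of Syt6 lay close together, whereas replicate 1 was the low one for Slc1a7. Mpp4, a scaffold of the photoreceptor terminal, rose from 4.05, 3.85 and 2.04 CPM to 21.1, 20.8 and 24.5 CPM (log2 change 2.74, SE 0.33, adjusted p 1.42e-05). Cacng3, an auxiliary subunit of AMPA receptors, rose from 1.97, 3.32 and 2.87 CPM to 19.4, 17.2 and 16 CPM (log2 change 2.68, SE 0.26, adjusted p 1.50e-06). All 5 were called in replicates 1 and 3 and in all 18 alternatives, and their changes in replicate 2 ran from 2.37 to 3.23.

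Of 17 tested identifiers of the ribbon synapse, the specialised terminal of photoreceptors and bipolar cells, 5 rose and none fell, each of them also in replicates 1 and 3. Lrit1, a membrane protein of that terminal, rose from 2.34, 4.55 and 2.51 CPM to 11.4, 17 and 20.3 CPM (log2 change 2.37, SE 0.30, adjusted p 2.13e-05). The complexins Cplx4 and Cplx3, which act on vesicle fusion, rose by 1.68 (SE 0.35) and 1.55 (SE 0.28), although Cplx4 reached 1.35 CPM at most while Cplx3 reached 68.4 CPM. Cacna2d4, a calcium channel subunit, rose by 1.56 (SE 0.33, adjusted p 0.00753; lost without D15 replicate 1), and Egflam, pikachurin, which aligns the terminal with bipolar dendrites, by 1.09 (SE 0.20, adjusted p 0.00205). Unc13b was the most abundant member not called, at 134 to 155 CPM and then at 153 to 167 CPM. In the list of general synaptic vesicle machinery 5 of 14 rose, none fell and the median was 0.75, but 1 of the 5 was called in replicates 1 and 3. That gene was Sv2a, a vesicle glycoprotein, at 26.3, 27.1 and 35.1 CPM and then at 61.7, 65.0 and 81.3 CPM (log2 change 1.23, SE 0.20, adjusted p 0.000561). Snap25 (1.20, adjusted p 0.0282), Cplx1 (1.04, adjusted p 0.0412) and Syn1 (1.00, adjusted p 0.0137) were called with all 3 replicates, and each lost its call without D15 replicate 1 and without D18 replicate 3, Snap25 also without D15 replicate 3 or D18 replicate 2, Cplx1 without any other D15 library or D18 replicate 2, and Syn1 without D15 replicate 2.

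The 10 largest falls were taken among called genes with a mean of at least 10 CPM on the higher day. Fgfbp3, a carrier of fibroblast growth factors, came first among them, from 45.2, 51.3 and 40.8 CPM to 8.53, 15.7 and 12.9 CPM (log2 change -1.89, SE 0.25, adjusted p 3.37e-05). Lin28b, which blocks the let-7 microRNAs and marks early developmental time, went from 13.8, 11.5 and 14.3 CPM to 3.16, 3.74 and 4.62 CPM (log2 change -1.78, SE 0.19, adjusted p 1.77e-06). Hmga2, a chromatin protein of young progenitors and a let-7 target, went from 81.5, 60.9 and 72.6 CPM to 22.5, 17 and 29.1 CPM (log2 change -1.65, SE 0.36, adjusted p 0.00979). Days did not overlap for any of them, and replicates of a day lay within a factor of 2. Lin28b and Fgfbp3 were also called in replicates 1 and 3 and in all 18 alternatives; Hmga2 was not called in replicates 1 and 3 (adjusted p 0.108) and lost its call without D15 replicate 1 or D18 replicate 2. Sfrp2, a secreted Wnt inhibitor, was the most abundant of the 10 largest falls, from 318, 370 and 388 CPM to 101, 141 and 123 CPM (log2 change -1.56, SE 0.28, adjusted p 0.00129).

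Aldh1a7, an aldehyde dehydrogenase, went from 46.6, 29.6 and 30.6 CPM to 10, 6.37 and 12.4 CPM (log2 change -1.88, SE 0.33, adjusted p 0.00126). Dusp9, a phosphatase of the ERK pathway, fell by 1.64 (SE 0.27, adjusted p 0.000751), from 11.5, 8.61 and 10 CPM to 3.29, 3.14 and 3.36 CPM. These 2 calls and that on Sfrp2 held in replicates 1 and 3 and in all 18 alternatives. Sgk1, a kinase, and Adamts9, a secreted metalloprotease, fell by 1.60 (adjusted p 0.0396) and 1.51 (adjusted p 0.0395), and each lost its call when any 1 of the 6 libraries was left out. Sowaha fell by 1.53 (SE 0.41, adjusted p 0.0395), led by replicate 2: its D15 libraries stood at 7.22, 21.8 and 7.26 CPM and its D18 libraries at 5.55, 4.25 and 2.77 CPM. In replicates 1 and 3 the change of Sowaha was -0.80 (adjusted p 0.519), and its call was lost without D15 replicate 2, D18 replicate 2 or D18 replicate 3.

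**Figure D3:**
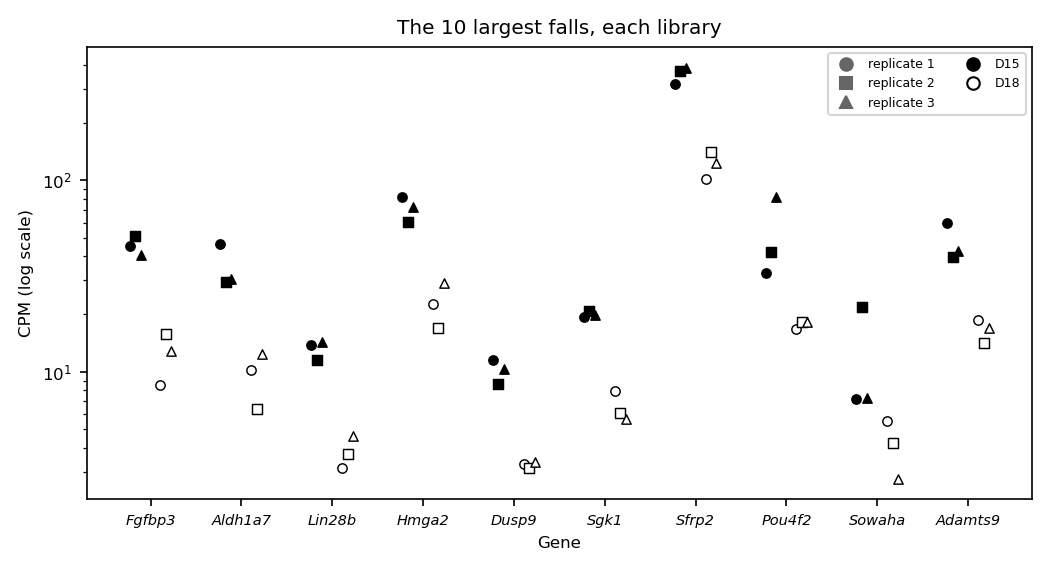
Levels of the 10 genes with the largest falls in each library (y axis, CPM on a log scale), filled at D15 and open at D18, with a symbol per replicate. For each gene the 3 open symbols lie under the 3 filled ones; Sowaha shows 1 high D15 library, replicate 2 at 21.8 CPM.

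Of 18 retinal progenitor genes, 4 fell and none rose, and the median log2 change was -0.54, with -0.54 in replicates 1 and 3 and -0.36 in replicate 2. Beside Sfrp2, Hmga2 and Lin28b, the call was Hes1, an effector of Notch, at 60.4, 64.5 and 62.2 CPM and then at 30.0, 22.6 and 36.5 CPM. Its log2 change was -1.07 (SE 0.25, adjusted p 0.0151), lost in replicates 1 and 3 (adjusted p 0.196) and without D18 replicate 1 or 2. Fgf15, the most abundant member not called, was at 1110, 813 and 1400 CPM and then at 823, 553 and 860 CPM (adjusted p 0.433, but 0.015 over the 6 libraries with the replicate block). Pax6, a core progenitor factor, gave -0.25 (adjusted p 0.881). Among 8 late progenitor factors 1 rose: Sox8, a factor that glia and late progenitors express, went from 4.21, 7.49 and 5.38 CPM to 34.9, 27.9 and 22 CPM (log2 change 2.31, SE 0.28, adjusted p 1.42e-05), a call kept in all 18 alternatives. Nfia, Nfib and Nfix, nuclear factors of late progenitors, gave 0.92, 0.56 and 1.40 (adjusted p 0.214, 0.404 and 0.144).

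Neurogenic factors moved both ways. Of 18 tested, 2 rose (Neurod1, given before, and Neurod4) and 1 fell. Atoh7, which makes progenitors competent for ganglion cells, went from 73.3, 66.9 and 113 CPM to 27.5, 31.3 and 42.8 CPM (log2 change -1.32, SE 0.26, adjusted p 0.00446; lost without D15 replicate 3). Neurod4, of photoreceptor and bipolar precursors, went from 72.8, 151 and 77 CPM to 210, 269 and 228 CPM (log2 change 1.23, SE 0.33, adjusted p 0.0408). D15 replicate 2 was the highest library of its day, and the log2 change of Neurod4 was 1.55 in replicates 1 and 3 (adjusted p 0.00448) and 0.83 in replicate 2. The call on Neurod4 with all replicates was lost without any single library other than D15 replicate 2. Btg2, a brake on division in precursors, was the most abundant member not called, at 250 to 334 CPM and then at 383 to 436 CPM (adjusted p 0.0729, but 0.024 with the replicate block and 0.029 by DESeq2).

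Cell cycle genes gave 1 call. None of 16 genes of DNA replication and S phase passed the test, and 1 of 20 genes of mitosis fell, Cdc20, an activator of the anaphase complex, from 121, 77.4 and 95.1 CPM to 64.8, 59.2 and 74.9 CPM (log2 change -0.56, SE 0.15, adjusted p 0.0408). That call was lost in 9 of 18 alternatives, among them the fits without D15 replicate 1 or 3 and without D18 replicate 1 or 2. No gene of either list had a log2 change above 0 with all 3 replicates, where 9791 of all 19897 tested genes did. Median log2 changes were -0.36 for S phase and -0.28 for mitosis with all 3 replicates. In replicates 1 and 3 they were -0.49 and -0.36, and in the library pair of replicate 2 they were -0.07 and -0.18. Top2a and Pcna, the most abundant members not called, gave -0.19 and -0.30 (adjusted p 0.715 and 0.527). D18 replicate 2 was the highest D18 library for all 16 S phase genes but for none of the mitosis genes, against 31.7% of all tested genes. Of the 5 CDK inhibitors none was called, Cdkn1a being the most abundant at 66.1 to 129 CPM and then at 139 to 199 CPM.

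Other retinal neurons also gained genes. In the amacrine list, 4 of 18 rose, none fell and the median log2 change was 1.22. Gad1, which makes the transmitter GABA, went from 1.04, 0.803 and 0.940 CPM to 6.32, 13.8 and 4.28 CPM (log2 change 3.12, SE 0.43, adjusted p 6.23e-05). This call held in all 18 alternatives, although the Gad1 change was 2.41 in replicates 1 and 3 and 4.09 in replicate 2. Slc32a1, the vesicular GABA transporter, rose by 2.01 (adjusted p 0.00592; lost without D15 replicate 1), and Tfap2b, a factor of amacrine precursors, by 2.02 (adjusted p 0.0473; lost with any 1 library left out).

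Bipolar genes gave 3 rises and 1 fall among 16. Pcp2, a G protein regulator of rod bipolar cells, went from 7.22, 8.78 and 10.6 CPM to 35.6, 53.9 and 63.5 CPM (log2 change 2.52, SE 0.26, adjusted p 1.50e-06), and Gng13, the G protein gamma subunit of ON bipolar cells, from 0.727, 1.02 and 0.731 CPM to 4.78, 7.03 and 6.91 CPM (log2 change 2.91, SE 0.51, adjusted p 0.00120). Both held in all 18 alternatives. Scgn, a calcium-binding protein, rose by 1.89 (adjusted p 0.0367; lost without any one D15 library or D18 replicate 3), and Vsx1, a bipolar homeobox factor near the floor, fell by 2.17 (adjusted p 0.0283), from 1.09, 0.642 and 1.10 CPM to 0.406, 0.0506 and 0.146 CPM, a call lost without D15 replicate 1 or 3 or D18 replicate 2 or 3. Among 20 ganglion cell genes 2 rose and 1 fell. Pou4f2, the factor that drives ganglion cell differentiation, went from 32.9, 42.3 and 82.0 CPM to 16.8, 18 and 18 CPM (log2 change -1.56, SE 0.41, adjusted p 0.0329), a call lost without D15 replicate 3, the highest, or any 1 D18 library. Nefh, a neurofilament, and Thy1, a surface protein of ganglion cells and fibroblasts, rose by 1.41 (adjusted p 0.0417) and 3.40 (adjusted p 0.0150) at levels of at most 4.42 CPM; neither was called in replicates 1 and 3, and both lost the call without any one D15 library, Nefh also without any one D18 library and Thy1 without D18 replicate 3. Of 9 horizontal cell genes none was called.

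Müller glia genes gave 2 rises and 1 fall among 13. Aqp4, a water channel, rose by 1.33 (SE 0.33, adjusted p 0.0251), with 1.82 in replicates 1 and 3 and 0.27 in replicate 2, whose library pair went from 2.94 to 3.54 CPM. Car2, a carbonic anhydrase, rose by 0.74 (adjusted p 0.0197), and Car14, a membrane-bound one, went from 60.7, 57.0 and 59.9 CPM to 32.8, 33.1 and 28.1 CPM (log2 change -0.92, adjusted p 0.0152). The definers Rlbp1 and Glul were not called (adjusted p 0.0719 and 0.563). Calls on Aqp4, Car2 and Car14 were each lost without D15 replicate 1, and Aqp4 also without D15 replicate 3 or D18 replicate 1 or 3, Car2 without D15 or D18 replicate 2, and Car14 without D15 replicate 3 or D18 replicate 2 or 3.

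Markers of the labelled tissue, neural retina, were present on both days: summed levels were 4660 to 5660 CPM at D15 and 3750 to 4030 CPM at D18 for the 18 progenitor genes, and 1280 to 1450 CPM and 1840 to 2350 CPM for the photoreceptor fate regulators. Genes of neighbouring tissues were called in few cases, and their part in the results above was not tested. Of 15 pigment epithelium genes 2 fell, Oca2 (-2.04, adjusted p 0.0413) and Otx1 (-1.43, adjusted p 0.0241), and their list summed to 102 to 244 CPM at D15 and 109 to 190 CPM at D18; Oca2 lost its call without any one of the 6 libraries and Otx1 without D15 replicate 1 or 3 or D18 replicate 1 or 2. Ttr, a secreted product of pigment epithelium and choroid plexus, ran against the rest in replicate 2 only, from 3.48 to 120 CPM, while it went from 34.8 to 20.6 CPM in replicate 1 and from 39.3 to 23.2 CPM in replicate 3 (adjusted p 0.788). Of 8 ciliary margin genes 1 fell, Gja1, a gap junction protein, from 191, 153 and 164 CPM to 67.5, 45.3 and 71.4 CPM (log2 change -1.47, SE 0.26, adjusted p 0.00140), a call kept in all 18 alternatives. The other members of that list were not called, but none of the 8 had a log2 change above 0, and the median was -0.91. With Gja1 included, the list summed to 403 to 548 CPM at D15 and 214 to 324 CPM at D18. Of 13 fibroblast and feeder genes 1 rose, Thy1, given before, with summed levels of 390 to 468 CPM and then 290 to 324 CPM. No member was called among lists for pluripotency (10 tested), telencephalon and hypothalamus (8), neural crest with other glia (7), hindbrain (7), endothelium (6), microglia and blood (4) and lens (3). Among blood and microglia markers C1qb, Tyrobp, Hbb-bs and Hba-a1 had no count in the 6 libraries, and the list summed to at most 2.97 CPM.

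**Figure D4:**
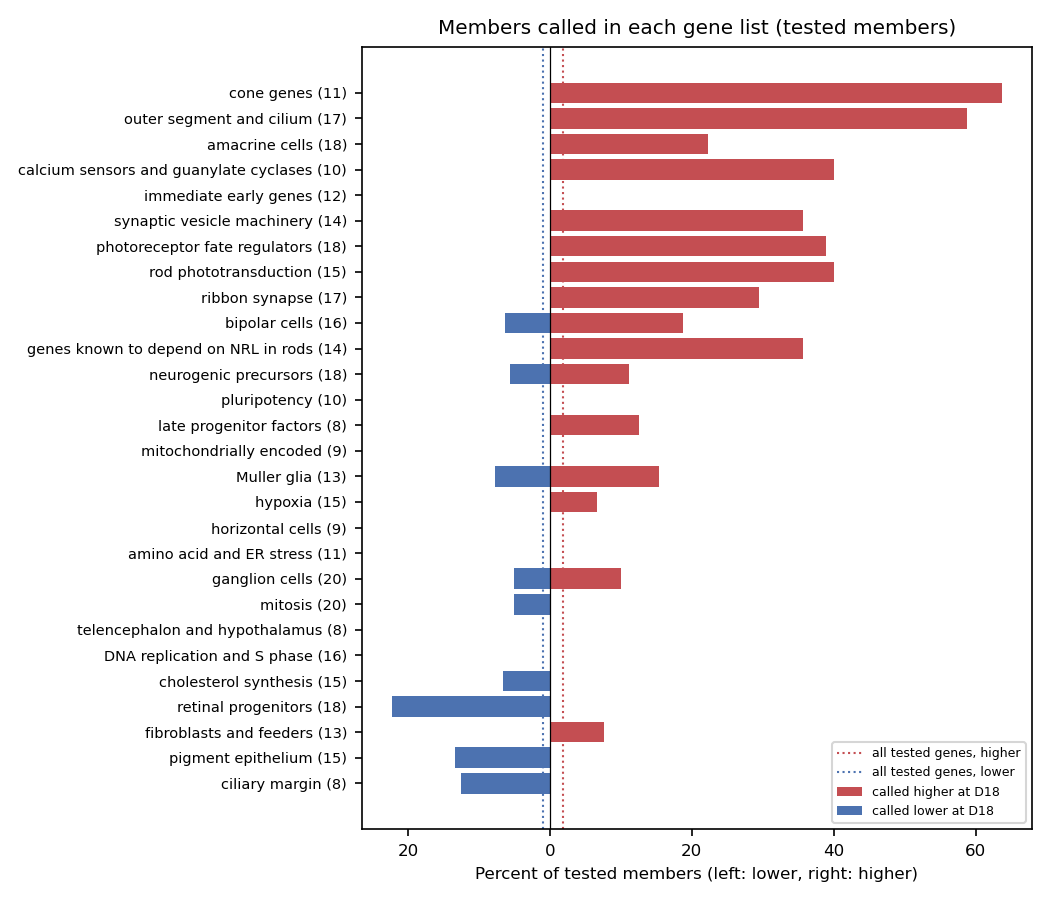
Share of tested members called higher (right, red) or lower (left, blue) at D18 in each list with at least 8 tested members (x axis, percent; number tested in brackets), ordered by median log2 change; dotted lines give the share over all tested genes, 1.91% higher and 0.975% lower. Cone genes (7 of 11) and outer segment genes (10 of 17) have the longest bars to the right and retinal progenitors (4 of 18) the longest to the left.

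Among rises replicate 2 was the highest D15 library, and among falls the lowest, more often than over all tested genes. This did not hold in every list that rose. Replicate 2 was the highest D15 library in 183 of the 381 genes called higher (48.03%), against 36.6% of all tested genes. It was the lowest in 85 of the 194 genes called lower (43.81%), against 34.99%. By list it was highest at D15 for 9 of 11 cone genes, 13 of 17 outer segment identifiers and 11 of 18 fate regulators, but for 3 of 18 amacrine genes, 3 of 14 synaptic vesicle genes and 4 of 16 bipolar genes. Fitted with replicate 2 apart, replicates 1 and 3 called higher 4 fate regulators, 4 rod phototransduction genes, 7 cone genes (Pde6h among them), 3 calcium sensors and cyclases, 2 amacrine and 3 bipolar genes, and called lower 2 progenitor genes and no pigment epithelium gene. Of the genes called with all 3 replicates, 17 rises and 8 falls also differed between replicate 2 and the other replicates over D10 to D25, where 861 of 18291 genes did (4.71%).

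**Figure D5:**
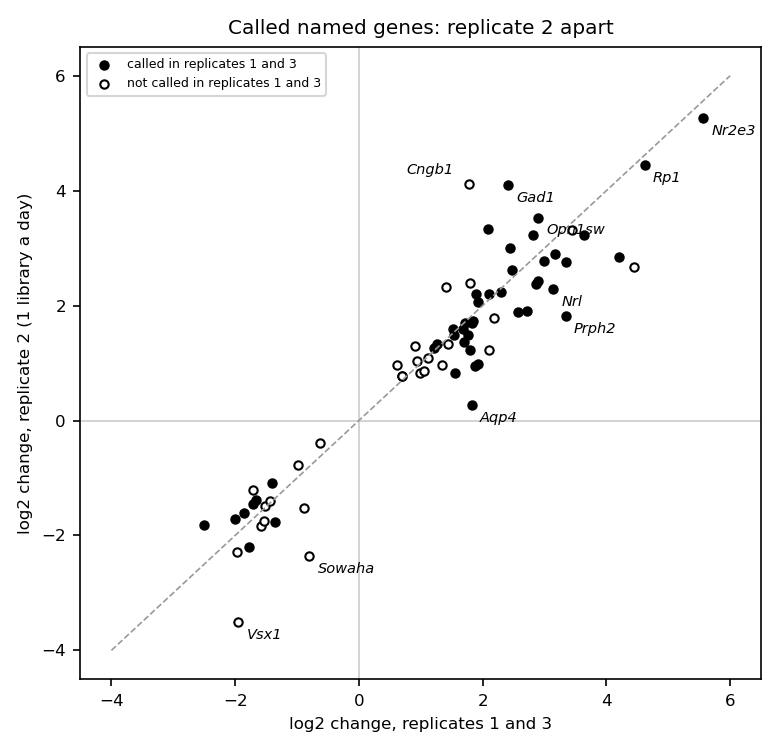
Log2 change in replicates 1 and 3 (x axis) and in the library pair of replicate 2 (y axis) for the 74 named genes called with all 3 replicates, filled where also called in replicates 1 and 3; the dashed line marks equal change. All points lie in the quadrants of shared sign; Gad1 and Cngb1 lie above the line, with 4.09 and 4.11 in replicate 2, and Prph2 and Aqp4 below it, with 1.82 and 0.27.

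A later step that shares no library with this one was D25 against D22. Both steps were tested in the same fit, with a shared estimate of spread for each gene. The shares over all tested genes were not matched for that spread or for level. Of the 381 genes that rose from D15 to D18, 70 rose again at D25 against D22 (18.37%), against 1.45% of all tested genes, and none fell. Of the 194 that fell, 24 fell again (12.37%), against 1.02%, and 1 rose. With scaling by library size only, the share rising again was 10.8%. Nrl rose at that step by 1.36 (adjusted p 0.0127), Rp1 by 1.60 (adjusted p 0.0131) and Mpp4 by 1.27 (adjusted p 0.0161), whereas Nr2e3 gave 0.88 (adjusted p 0.229) and Opn1sw 0.25 (adjusted p 0.881). Rod genes that were not called from D15 to D18 were called at this later step: Pde6a gave 2.27 (adjusted p 0.00515) and Cnga1 3.53 (adjusted p 0.000139), while Gnat1 gave 0.79 (adjusted p 0.370). D15 against D12 had 1475 calls and D22 against D18 had 1631; both share libraries with D18 against D15. At D22 against D18, Nrl gave 3.24 (adjusted p 7.80e-07) and Nr2e3 3.76 (adjusted p 4.25e-06), beside 2.76 and 5.40 from D15 to D18. Crx gave 2.65 from D12 to D15, 0.92 from D15 to D18 and 0.51 from D18 to D22.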

How the data were processed

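Polyadenylated RNA was measured in 30 stranded libraries, 3 biological replicates a day per the labels. Whether the replicates came from separate differentiations is not given in the sources used here, so p-values measure the spread between these samples. The tools were Trimmomatic 0.36, kallisto 0.42.4 (a pseudoaligner) and edgeR with the build GRCm38.p4, per the submitters' processing notes. The authors deposited estimated counts per gene and per transcript, and a normalised signal per gene that is scaled by 1 factor a library. How transcripts were summed to genes and how strand was used are not given in the sources used here. Per deposited file, 3 columns matched no sample and were not used.

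Tests ran on rounded estimated counts with edgeR 4.0.16 (R 4.3.3): filterByExpr by day (minimum count 10, minimum total 15; 19897 of 45594 genes kept, at least 99.73% of each library's counts), TMM factors, a mean per day over all 30 libraries and the quasi-likelihood F test, with Benjamini-Hochberg adjustment over all tested genes and calls at adjusted p below 0.05. The SE of a log2 change was derived from the F statistic. A second fit held replicate 2 of D10 to D25 as groups of its own, where 1 library is assumed to vary like the others. Deviations from the day means of same-numbered D15 and D18 libraries gave r = 0.104, 0.296 and 0.19 for replicates 1, 2 and 3. Between different numbers r ran from -0.291 to 0.163. The highest of these, D15 replicate 1 with D18 replicate 3, lay above the value for replicate 1 itself. The replicate block takes the numbers to pair the samples, which the labels do not state and these values do not establish for replicates 1 and 3. Calls are those without the replicate block, and blocked values stand beside the calls they change. Library depth was 16.77 to 24.53 M counts. DESeq2 1.42.0 and limma 3.58.1 (on the deposited normalised signal, log2 with a pseudocount of 1 or 0.1) served as alternatives.

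The comparison, the 34 gene lists (408 genes, 393 tested) and the naming rule were chosen with earlier results of these data known. The rule names Nrl, the 10 largest rises and 10 largest falls among called genes without overlap between days and a mean of at least 10 CPM on the higher day, passing over predicted genes and pseudogenes, then for each list up to 4 called members with the largest change, those against the trend and the most abundant one not called, and fate regulators, rod and cone genes in full. Some genes that the rule names are not reported here. Pax6, Nfia, Nfib, Nfix, Rlbp1, Glul, Egflam, Rbp3, Rpgrip1, Tulp1, Cdhr1, Abca4, Unc119 and Rpl3 fall outside the rule and were chosen after their values were seen.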

Additional observations from a re-analysis of the deposited data

Results flagged for a closer look

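In 4 gene lists the median log2 change of the replicate 2 library pair had the opposite sign to those of both other pairs; the difference was not tested for any of them, and none of their genes differed between replicate 2 and the other replicates after adjustment in edgeR. For the hypoxia list (15 genes) the median was 1.02 in replicate 2, against -0.415 in replicate 1 and -0.299 in replicate 3. D15 replicate 2 was the library with low values: its hypoxia genes such as Ddit4 stood at 100 CPM beside 367 and 593 CPM in D15 replicates 1 and 3, and Ankrd37 at 6.42 CPM beside 25.5 and 34.1 CPM; these genes were chosen after their values were seen. For the ganglion cell list (20 genes) the median was 0.178 in replicate 2, where D15 replicate 3 held the highest level of Nefm, chosen likewise (305 CPM beside 129 and 110 CPM). For endothelium (6 genes) it was 0.33, and for mitochondrially encoded genes (9) it was -0.0145.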

How the results depend on the processing

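With all 3 replicates 575 genes were called (381 higher, 194 lower). DESeq2 called 982 (622 and 360), a term for replicate 2 over D10 to D25 called 1188 (713 and 475), the libraries of D10 to D25 alone called 875 (327 lower), the 6 libraries with a replicate block called 1353 (761 and 592), and library size only called 63 lower. Leaving out 1 library at a time gave 255 to 475 calls, 177 to 358 higher and 78 to 135 lower. In replicates 1 and 3, DESeq2 called 582 genes instead of 261, and leaving out 1 library gave 42 to 165. The difference between replicate 2 and replicates 1 and 3 gave 1 gene without the low-count filter and 1 gene with limma at either pseudocount, instead of 0. The share of rises called higher again at D25 against D22 was 10.8% with library size only, instead of 18.4%. The cause of these shifts was not tested. The fits that leave 1 library out also hold fewer samples, and the part of that in their counts was not tested either. The replicate block over all 30 libraries called 651 genes, gained the named genes Btg2 and Gnat2 and changed no other call on a named gene; over the 6 libraries it gained 12 named genes and lost Aqp4. Of 74 named genes called, 35 held in all 18 alternatives and 39 were lost in at least 1. Among 54 named genes not called, 12 changed sign in 28 of 968 gene and setting pairs. The change of Nrl in replicate 2 ran from 2.18 to 2.34 over the alternatives. Library size only ended the calls on Hes1, Adamts9, Car14, Cdc20, Oca2, Otx1, Pou4f2, Sgk1, Sowaha, Vsx1 and Tfap2b. Limma with a pseudocount of 0.1 ended 19 named calls, on Atoh7, Cacna2d4, Cdc20, Cplx1, Gngt1, Kcne2, Ndrg1, Nefh, Neurod1, Neurod4, Oca2, Pdc, Pde6c, Pou4f2, Rd3, Scgn, Snap25, Sowaha and Tfap2b, and gained Pde6h. With a pseudocount of 1 it ended those on Cngb1, Rcvrn and Thy1 and gained C1qa, Gnat2 and Pde6h. DESeq2 ended the call on Tfap2b and gained Btg2, Crx, Gnat2, Pde6h, Prdm1 and Rxrg. Depth limits genes near 0, such as Rcvrn, Cngb1 and Vsx1.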

Other observations

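Genes of the response to stimulation were uneven in replicate 2. No immediate early gene was called among 12 tested, but Fosb stood at 0.812, 37.7 and 0.243 CPM in D18 replicates 1, 2 and 3 (adjusted p 0.0638), Fos at 8.84, 57.1 and 1.95 CPM (adjusted p 0.213) and Egr1 at 58.0, 219 and 8.56 CPM (adjusted p 0.181). At D15 these 3 genes were also highest in replicate 2, at 1.50, 7.49 and 35.2 CPM. They were chosen after their values were seen.

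In the cholesterol synthesis list of 15 tested genes, the enzyme Hmgcs1, the most abundant member, was at 870, 748 and 1130 CPM and then at 552, 730 and 590 CPM (adjusted p 0.441). D18 replicate 2 was the highest D18 library for 13 of the 15, against 31.7% of all tested genes. Ndrg1 rose among 15 hypoxia genes, from 81.9, 105 and 89.5 CPM to 173, 224 and 198 CPM (log2 change 1.11, SE 0.31, adjusted p 0.0475), and lost its call when any 1 of the 6 libraries was left out. No gene was called among 11 of amino acid and ER stress or 9 that mitochondria encode, where mt-Co1 gave 0.21 (adjusted p 0.776).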
